A study of Mus musculus with 4 samples.

Results

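The Cd209 genes encode the mouse relatives of human DC-SIGN, and they are described here on 4 arrays of dendritic cells grown from bone marrow. The mice had a floxed gene for the transcription factor Rbpj and either carried or lacked a cre transgene that deletes it. The members were the 7 genes Cd209a, Cd209b, Cd209c, Cd209d, Cd209e, Cd209f and Cd209g, of 32496 genes or probe targets on the array. They were selected on measured values, since several of them lay lower in the comparison described here, so their own differences are given as a description, and their place in the fit over all genes is no test of them. Of the 7 genes, 6 had a probe, with 8 probes in all, and no probe was matched to Cd209g. Of these probes, 6 were well above background on all 4 arrays, a flag that the scanner software sets from the local background of each spot. They belonged to Cd209a, Cd209c, Cd209d and Cd209e.

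RFF11 cells came from mice with both Rbpj alleles floxed and a CD11c-cre transgene, and RFF cells came from mice with the same floxed alleles, labelled as control. CD11c-cre expresses the recombinase from the promoter of the CD11c gene, Itgax, so that the floxed gene is deleted in cells that use this promoter. Deletion of Rbpj and presence of cre come together in this comparison. Both groups were C57BL/6 females, 8 weeks old. Their marrow cells were grown for 6 days in medium with the cytokine GM-CSF at 20 ng/mL, and CD11c+ cells were then isolated. RNA was pooled from 4 mice per genotype, and 2 arrays were run for each. Whether each array had its own pool is not stated in the labels, so p-values measure only the spread between arrays, which may be technical.

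DC-SIGN and its relatives are C-type lectins, transmembrane proteins of the cell surface with a calcium-dependent carbohydrate recognition domain. Through this domain human DC-SIGN binds mannose- and fucose-containing glycans. It takes up glycan-coated material for presentation and binds microbes and cell adhesion molecules. In the mouse the family has multiplied into a cluster of neighbouring genes. Cd209a is the member named DC-SIGN or CIRE in the mouse and is expressed by monocyte-derived and conventional dendritic cells. Cd209b, or SIGN-R1, captures polysaccharide antigens on marginal zone macrophages of the spleen. Cd209d, or SIGNR3, binds mycobacteria. Cd209c and Cd209e are known as SIGNR2 and SIGNR4. RBPJ is the DNA-binding partner of Notch receptors, and in the mouse spleen Notch2 and RBPJ are required in CD11c+ cells for a subset of conventional dendritic cells.

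The promoters of the 3 members that lay lower without overlap, Cd209a, Cd209d and Cd209e, and of Cd209c, whose values overlapped between genotypes, are shown because they allow the members that moved together to be read side by side. They are from RefSeq on build GRCm38.p6, read 5′ to 3′ on the minus strand, the strand of each of these genes, and span 250 bases before and 50 bases after the annotated start. The windows are chr8:3748935-3749234 for Cd209a, chr8:3878450-3878749 for Cd209d, chr8:3854237-3854536 for Cd209e and chr8:3946814-3947113 for Cd209c. Capitals mark the longest run of letters shared by Cd209a, Cd209d and Cd209e, which was found after the values were seen.
Cd209a: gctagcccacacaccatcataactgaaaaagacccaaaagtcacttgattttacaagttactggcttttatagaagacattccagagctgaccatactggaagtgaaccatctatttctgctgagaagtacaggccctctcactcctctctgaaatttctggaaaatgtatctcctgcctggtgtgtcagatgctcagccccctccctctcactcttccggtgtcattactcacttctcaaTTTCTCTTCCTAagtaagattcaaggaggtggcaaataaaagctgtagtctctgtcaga
Cd209d: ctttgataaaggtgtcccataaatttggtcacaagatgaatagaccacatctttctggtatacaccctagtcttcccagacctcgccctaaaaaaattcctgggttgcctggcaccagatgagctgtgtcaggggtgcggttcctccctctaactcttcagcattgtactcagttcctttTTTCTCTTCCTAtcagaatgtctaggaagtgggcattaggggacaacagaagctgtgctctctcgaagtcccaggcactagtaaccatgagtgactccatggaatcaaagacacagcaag
Cd209e: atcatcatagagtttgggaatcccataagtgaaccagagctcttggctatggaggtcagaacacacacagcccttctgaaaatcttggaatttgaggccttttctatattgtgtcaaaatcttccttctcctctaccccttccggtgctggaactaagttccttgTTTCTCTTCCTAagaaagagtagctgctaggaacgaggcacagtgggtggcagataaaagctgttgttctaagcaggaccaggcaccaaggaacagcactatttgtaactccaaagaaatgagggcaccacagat
Cd209c: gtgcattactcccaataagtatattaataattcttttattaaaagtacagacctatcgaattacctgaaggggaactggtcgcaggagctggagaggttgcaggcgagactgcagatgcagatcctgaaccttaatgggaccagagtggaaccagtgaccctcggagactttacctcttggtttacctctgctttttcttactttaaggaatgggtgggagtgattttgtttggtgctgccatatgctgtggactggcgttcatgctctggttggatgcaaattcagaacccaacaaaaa

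The shared run, TTTCTCTTCCTA, is 12 letters long. Its first base lay 9 bases before the start in Cd209a, 70 bases before it in Cd209d and 85 bases before it in Cd209e. On either strand it was present in 9 of 32851 promoters, or 0.0274%, and in 3 of the 7 members. It was picked as the run that Cd209a, Cd209d and Cd209e share, so its presence in these 3 was fixed in advance. The member count is therefore no support for a role of the run. Cd209a and Cd209e shared a longer run of 14 letters, TTTCTCTTCCTAAG, and the longest run that Cd209c shared with any of these 3 promoters was 8 letters. Other pairs of members also shared runs, of 17 letters between Cd209a and Cd209b and of 180 letters between Cd209f and Cd209g. Cd209b and Cd209f had a dim probe, and Cd209g had none. The core of the RBPJ binding motif was searched as TGGGAA on both strands and was present in 25.6% of promoters and in 3 of the 7 members. In Cd209e it began 236 bases before the start on the strand of the gene, in Cd209d it began 178 bases before the start on the opposite strand, and in Cd209b it began 21 bases after the start on the opposite strand. The window of Cd209a held no match. The longer form GTGGGAA, which contains the shorter one, was present in 6.38% of promoters and in 0 members. A match of letters describes the window only, and binding was not measured.

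On the arrays 43020 spots per array carried gene probes, of which 58.4% and 57.7% were well above background on the RFF11 arrays and 55.2% and 58.1% on the RFF arrays. Levels are given as log2 of the spot signal minus the 75th percentile of that array, so that 0 is the level of that percentile and a difference of 1 is 2-fold. Over the 17973 genes tested, the replicates correlated at 0.998 in RFF11 and 0.997 in RFF cells, against 0.993 to 0.994 between genotypes (Pearson r across genes). The brighter Rbpj probe read 1.37 and 1.44 in RFF11 cells, against 2.69 and 2.61 in RFF cells. That is a log2 difference of -1.25 (SE 0.06, limma adjusted p = 0.0278), and 42.1% of the RFF signal was left. Itgax, the CD11c gene itself, read 6.65 and 6.45 in RFF11 cells, against 6.69 and 6.63 in RFF cells (log2 difference -0.11, limma adjusted p = 0.523).

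Of the Cd209 genes, Cd209d, Cd209e and Cd209a lay lower in RFF11 cells, with log2 differences of -1.93, -1.44 and -1.33, and both RFF11 arrays lay below both RFF arrays for each of them. Cd209c differed by -0.22 and its groups overlapped. The median log2 difference was -1.38 over the 4 member genes tested, -1.05 over all 8 probes and -0.01 over all genes tested. The 3 lower members also stood apart between the RFF11 arrays, with more signal on replicate 1 than on replicate 2. In bulk RNA fewer cells of a type and less RNA per cell cannot be told apart.

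With limma and Benjamini-Hochberg adjustment over all genes, 0 of the 4 member genes passed the threshold of 0.05, where 1.88% of genes passed in either direction, 0.84% lower and 1.04% higher in RFF11. At an unadjusted p under 0.05 stood 3 of the 4, against 24.1% of all genes. Both RFF11 arrays lay below both RFF arrays for 3 of the 4 members and for 32.2% of all genes, and above them for 26.8%. Since the members were selected on this contrast, these counts are no test of them and nothing is read from them. By size, 24 of the 17973 genes had a difference as low as that of Cd209d or lower, 43 as low as Cd209e, 55 as low as Cd209a and 2417 as low as Cd209c.

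**Figure D1:**
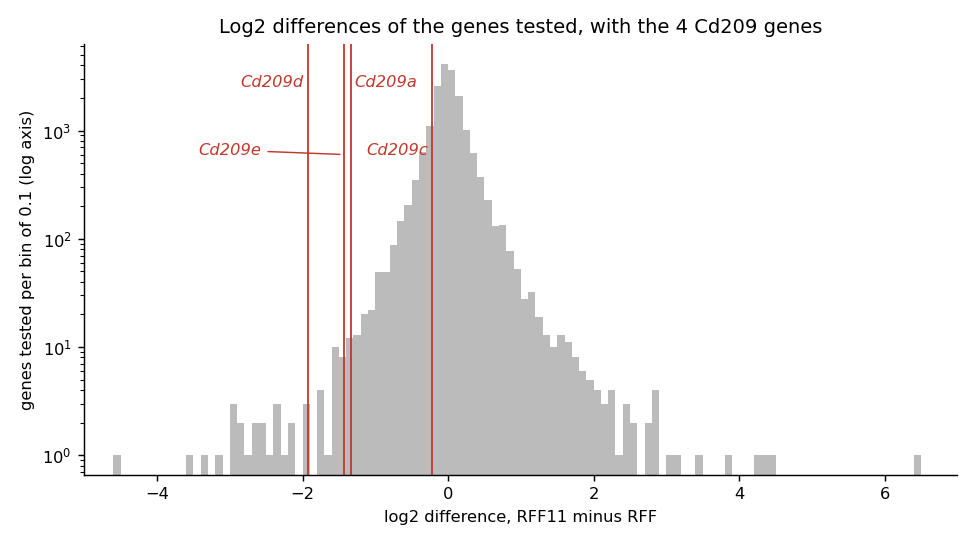
Log2 difference, RFF11 minus RFF, of the 17973 genes tested, as the number of genes per bin of 0.1 on a log axis, with red lines for the 4 Cd209 genes tested. Cd209d, Cd209e and Cd209a lie in the lower tail at -1.93, -1.44 and -1.33, and Cd209c lies within the bulk of genes at -0.22.

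Cd209a, the dendritic cell member for which the mouse gene is usually named DC-SIGN, was measured by a pair of probes. The brighter, A_55_P2018061, read 3.39 and 2.29 in RFF11 cells, against 4.17 and 4.17 in RFF cells. The RFF arrays were nearly identical, while RFF11 replicate 2 was far below RFF11 replicate 1, and both lay below the RFF arrays, the higher of them by 0.78. The means were 2.84 ± 0.78 in RFF11 and 4.17 ± 0.000696 in RFF cells (SD, n = 2 each). The log2 difference of -1.33 left 39.7% of the RFF signal, namely 58.3% on replicate 1 and 27.1% on replicate 2. The dimmer probe, A_51_P133884, read -1.23 and -2.40 in RFF11 cells, against -0.36 and -0.40 in RFF cells. It left 36.9% of the RFF signal (log2 difference -1.44), so both probes of the gene showed the same order of the RFF11 arrays and a difference of similar size. Without RFF11 replicate 2 the difference of the brighter probe was -0.78, and without RFF11 replicate 1 it was -1.89.

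Cd209d, the mycobacteria-binding SIGNR3, had the largest difference among the members. Its probe read 1.56 and 0.41 in RFF11 cells, against 2.72 and 3.11 in RFF cells. All 4 values were distinct, the genotypes did not overlap, and RFF11 replicate 2 was again the lowest. The means were 0.99 ± 0.81 in RFF11 and 2.92 ± 0.28 in RFF cells (SD, n = 2 each), a log2 difference of -1.93 that left 26.3% of the RFF signal, namely 39.1% on replicate 1 and 17.6% on replicate 2. The difference was -1.35 without RFF11 replicate 2 and -2.50 without RFF11 replicate 1.

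Cd209e, or SIGNR4, read -1.61 and -2.30 in RFF11 cells, against -0.59 and -0.45 in RFF cells. The RFF11 arrays were both below the RFF arrays and replicate 2 was once more the lower. The means were -1.96 ± 0.49 in RFF11 and -0.52 ± 0.10 in RFF cells (SD, n = 2 each), and the log2 difference of -1.44 left 36.9% of the RFF signal. Per array, 46.9% was left on replicate 1 and 29.1% on replicate 2. Leaving out 1 array at a time kept the difference between -1.78 and -1.09.

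Cd209c, or SIGNR2, was the tested member whose genotypes overlapped. Its brighter probe, A_55_P2040805, read 3.34 and 2.74 in RFF11 cells, against 3.34 and 3.19 in RFF cells. RFF11 replicate 1 equalled the higher RFF array to 2 decimals, and only RFF11 replicate 2 lay below the RFF range. The means were 3.04 ± 0.43 in RFF11 and 3.26 ± 0.11 in RFF cells (SD, n = 2 each), with 85.6% of the RFF signal left. The dimmer probe, A_55_P2050754, read -0.77 and -0.77 in RFF11 cells, against -0.76 and -0.92 in RFF cells, a log2 difference of 0.07. The probes of Cd209c therefore disagreed on RFF11 replicate 2, which was low by one probe and not by the other.

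The other members were at the limit of detection. Cd209b, the marginal zone macrophage lectin SIGN-R1, was not well above background on any array, so no change is read for it. Cd209f was well above background on RFF replicate 2 alone. Its probe read -6.53 and -6.28 in RFF11 cells, against -6.80 and -5.56 in RFF cells, and the RFF arrays lay on both sides of the RFF11 arrays. Members of a gene family can share sequence, and how far the probe of one Cd209 gene also reads another was not tested, since probe sequences were not used here.

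**Figure D2:**
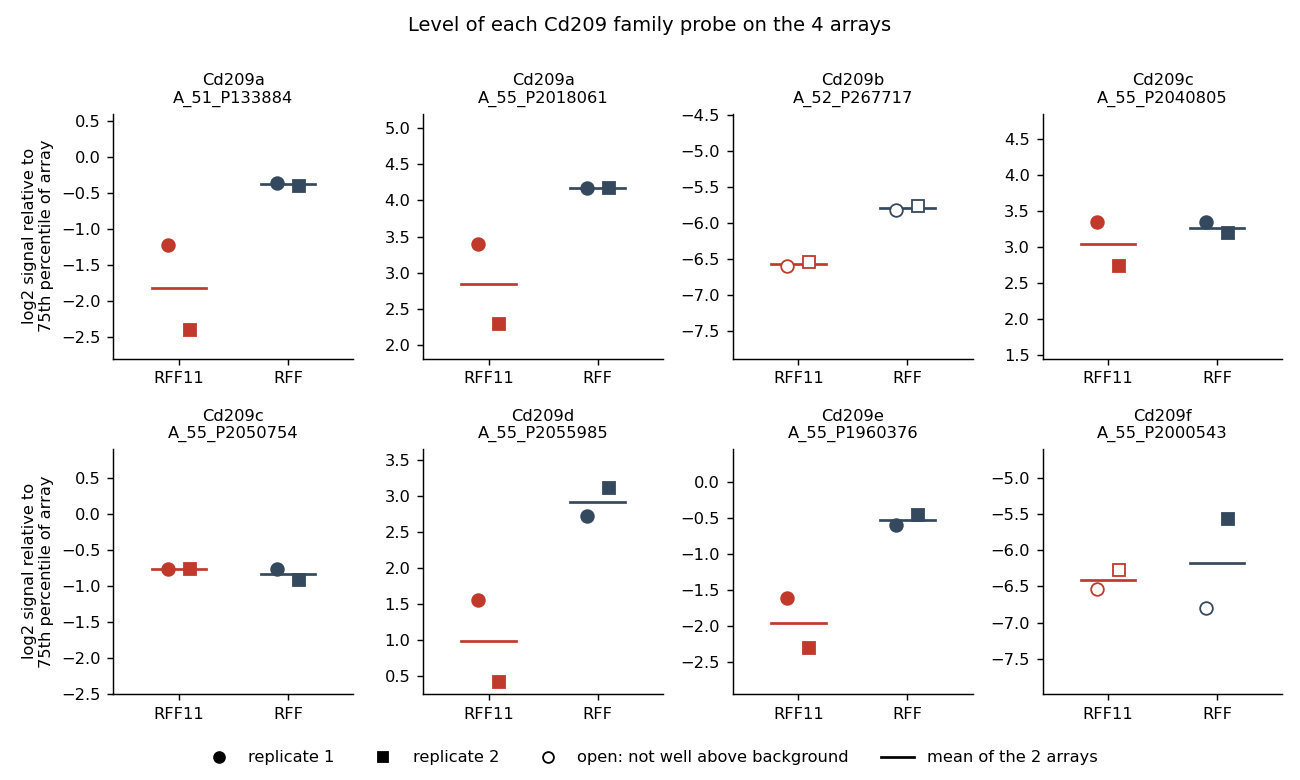
Level of each of the 8 Cd209 probes on the RFF11 arrays (red, left) and the RFF arrays (blue, right), as log2 signal after subtraction of the 75th percentile of each array, with circles for replicate 1, squares for replicate 2, open symbols where a spot was not well above background, and a line at the mean. Each panel spans the same range of log2 units around its own centre. Both RFF11 values lie below both RFF values for Cd209d, Cd209e and both probes of Cd209a, with replicate 2 the lower, and the groups overlap for both probes of Cd209c.

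The gap between the RFF11 arrays was unusual for a gene of these arrays. RFF11 replicate 1 exceeded replicate 2 by 1.15 on the log2 scale for Cd209d, by 1.11 for Cd209a and by 0.69 for Cd209e, which is 2.22-fold, 2.15-fold and 1.61-fold more signal. For the brighter Cd209c probe the gap was 0.60, or 1.52-fold. Over all genes tested the median gap was 0.00 and its SD was 0.23 between the RFF11 arrays and 0.25 between the RFF arrays. A gap between RFF11 arrays as large in size was seen for 0.479% of genes at Cd209d, 0.523% at Cd209a, 1.77% at Cd209e and 2.31% at Cd209c. RFF11 replicate 1 stood at least 1 above replicate 2 for 56 genes, and replicate 2 stood at least 1 above replicate 1 for 72. Of the 35 with a symbol among the first, 7 lay lower in RFF11 than in RFF cells without overlap, Cd209a and Cd209d among them. Over all genes 32.2% did so, but a wide gap between the RFF11 arrays by itself makes such a separation harder. The shares are thus not comparable and nothing is read from them.

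**Figure D3:**
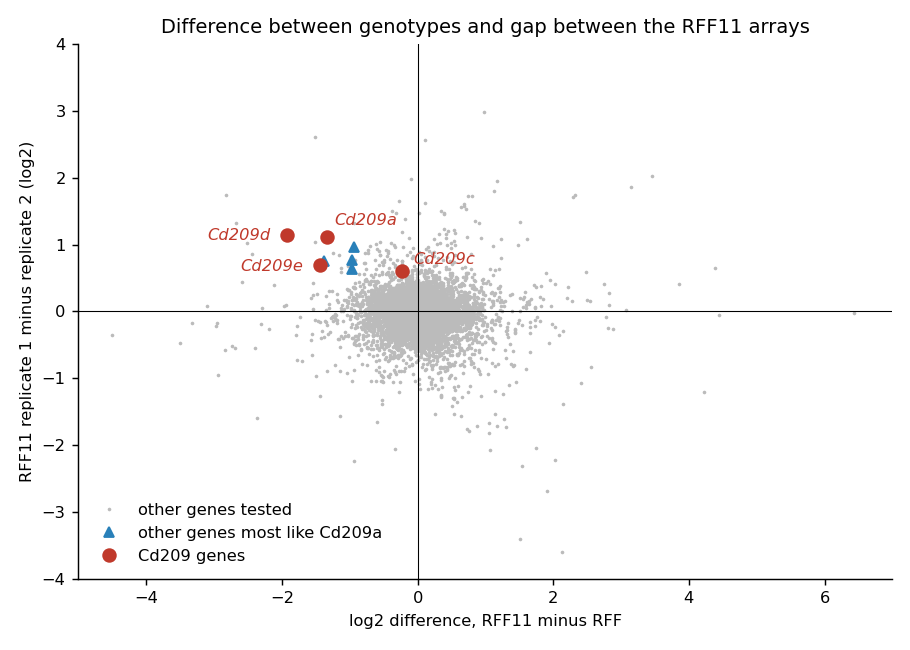
Each point is 1 of the 17973 genes tested, placed by its log2 difference RFF11 minus RFF (horizontal) and by the log2 gap of RFF11 replicate 1 over replicate 2 (vertical). The 4 Cd209 genes (red circles) have gaps from 0.60 to 1.15 and lie above the bulk of genes, and the 4 other genes nearest to Cd209a in pattern (blue triangles) lie close to them.

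Likeness of pattern was measured as the root mean square difference, over the 4 arrays, of log2 levels each centred on their own mean, where 0 is an identical pattern. The probes of Cd209a differed from each other by 0.0598, and Cd209a differed from Cd209e by 0.163, from Cd209d by 0.329 and from Cd209c by 0.585. Among 17053 other genes well above background on all 4 arrays, Cd209e was the nearest to Cd209a, Cd209d was the 18th and Cd209c the 594th. The next nearest genes with a symbol were Adrb1, an adrenergic receptor (0.198), Tchh, the hair follicle protein trichohyalin (0.227), Adra2c, another adrenergic receptor (0.231), and Bace2, an aspartic protease (0.268). Adrb1 read -4.52 and -5.27 in RFF11 cells, against -3.73 and -3.30 in RFF cells, so it was a dim spot with the same order of the RFF11 arrays. Tchh, Adra2c and Bace2 were dim too, at -5.63, -5.04 and -4.98 on RFF11 replicate 2. The lowest level well above background on that array was -5.76. These 5 nearest genes were the same with quantile or median scaling and in the deposited table. With background corrected by normexp or with raw signal only Cd209e stayed among the 5. The points are 4 arrays that share a slide, and the likeness is a description. Members were selected for lying lower on these same arrays, which favours near ranks among the lower ones. The ranks are therefore no test of shared regulation.

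The Cd209 genes lie in a cluster on chromosome 8, in the RefSeq order Cd209a, Cd209e, Cd209d, Cd209b, Cd209c, Cd209f and Cd209g. Between the members lie 7 other annotated genes, of which 0 were tested. The 3 lower members are consecutive among the Cd209 genes and stand at one end of the cluster, near Clec4g and Fcer2a. Clec4g encodes the related lectin LSECtin of liver and lymph node sinus endothelium, and Fcer2a encodes the low-affinity IgE receptor CD23. Clec4g read -2.76 and -3.30 in RFF11 cells, against -2.37 and -2.32 in RFF cells. Its log2 difference was -0.69 (SE 0.20, limma adjusted p = 0.154), and RFF11 replicate 2 was again lower than replicate 1, by 0.54. Fcer2a read -4.59 and -4.20 in RFF11 cells, against -3.80 and -4.21 in RFF cells (log2 difference -0.39, limma adjusted p = 0.325), and its groups overlapped.

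Farther out, differences were small on the Clec4g side and small or uneven on the other. Trappc5, a subunit of a vesicle trafficking complex, differed by -0.02. Beyond Cd209g, Evi5l differed by -0.24 (limma adjusted p = 0.211), Lrrc8e, a subunit of volume-regulated anion channels, by 0.43 (limma adjusted p = 0.197) and the kinase gene Map2k7 by 0.11 (limma adjusted p = 0.447). Prr36 differed by 1.51 (SE 1.20, limma adjusted p = 0.489), carried by RFF11 replicate 2 alone, at -1.10 against -4.50 on RFF11 replicate 1 and -4.42 and -4.21 in RFF cells. Of the 5 annotated genes on either side, 3 before and 4 after the cluster were tested, and 0 passed the limma threshold.

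**Figure D4:**
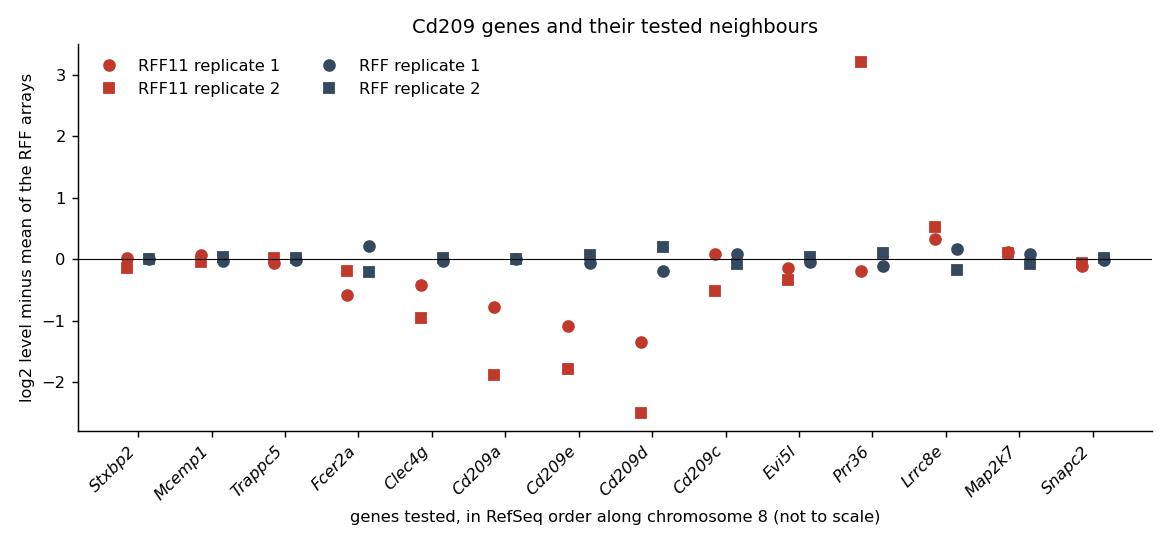
Log2 level of each tested gene on every array minus the mean of its RFF arrays, for the 4 tested Cd209 genes and the tested neighbours on either side in RefSeq order along chromosome 8, not to scale. RFF11 values are red and on the left, RFF values are blue and on the right. Both RFF11 arrays lie below the RFF arrays from Clec4g to Cd209d, most for Cd209d, whereas the RFF11 and RFF arrays overlap at Cd209c, and Prr36 has 1 high RFF11 array.

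Other C-type lectin receptors of myeloid cells did not share the pattern as a list. Of the 24 tested, 3 rose, 0 fell and 21 did not pass, where 1.04% of all genes rose and 0.84% fell. Their median log2 difference was -0.04, against -0.01 over all genes. Both RFF11 arrays lay below both RFF arrays for 12 of the 24 and above them for 9, where 32.2% and 26.8% of all genes did so. The lean toward higher calls depended on the processing, with 5 higher and 4 lower under normexp or raw median signal and 5 higher and 6 lower under a trended, robust variance prior. Clec4a4, the inhibitory receptor DCIR2 of a subset of conventional dendritic cells, rose by 2.02 (SE 0.10, limma adjusted p = 0.0278). It read -0.79 and -0.56 in RFF11 cells, against -2.65 and -2.74 in RFF cells. Cd207, the Langerhans cell lectin langerin that like DC-SIGN binds mannose, rose by 1.32 (SE 0.11, limma adjusted p = 0.0379). Clec5a, an activating receptor of monocytes and neutrophils, rose by 0.87 (SE 0.07, limma adjusted p = 0.0379). Mrc1, the mannose receptor, differed by -0.46, and the galactose-type lectins Clec10a and Mgl2 by -0.54 and -0.27, and 0 of these 3 passed (limma adjusted p = 0.0679, 0.0939 and 0.106). For Mrc1, Clec10a and Mgl2 the RFF11 replicates lay within 0.16 of each other, unlike those of the lower Cd209 genes.

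Genes around DC-SIGN function were described from 4 further lists. Of the ligands, 3 were tested and 0 passed, with a median of -0.29. Icam2, the endothelial adhesion molecule that human DC-SIGN binds, lay farthest from 0, at -0.51 (limma adjusted p = 0.120). It read 0.15 and 0.47 in RFF11 cells, against 0.78 and 0.86 in RFF cells. Of 11 tested components of the signalling complex known for human DC-SIGN, 0 passed and the median was 0.03. Src lay farthest from 0, at 0.47 (limma adjusted p = 0.138), and was well above background on 3 of the 4 arrays. The scaffold gene Lsp1 differed by -0.21 (limma adjusted p = 0.122).

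The regulators were 8 genes reported at the human CD209 promoter or in the induction of that gene by interleukin-4, and 0 of the 8 passed (median 0.06). Runx3, a transcription factor of the Runt family, lay farthest from 0, at 0.43 (limma adjusted p = 0.0806). It read 0.37 and 0.38 in RFF11 cells, against 0.03 and -0.14 in RFF cells. Spi1, which encodes PU.1, differed by -0.04, Stat6 by -0.07 and the interleukin-4 receptor gene Il4ra by -0.34 (limma adjusted p = 0.698, 0.481 and 0.0716).

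Of 16 tested target genes of interleukin-4 and STAT6, 2 rose, 1 fell and 13 did not pass, where 1.88% of all genes passed in either direction, and the median was -0.28. Lower calls outnumbered higher ones with other processing, at 4 lower and 2 higher under normexp or raw median signal and 6 lower and 3 higher under the trended prior. Ccl24, the eosinophil chemoattractant eotaxin-2, rose by 3.08 (limma adjusted p = 0.0289). Il1rn, the interleukin-1 receptor antagonist, rose by 0.69 (limma adjusted p = 0.0379). The gene that fell was Retnla, a secreted protein of alternatively activated macrophages (limma adjusted p = 0.0379). It read -7.67 and -7.10 in RFF11 cells, where it was not well above background, against -4.75 and -4.35 in RFF cells. It entered the test through the RFF arrays alone, so a gene kept in this way had to differ and its call is no independent support. Its signal was at least 2.47-fold lower in RFF11 cells, a bound set by the lowest signal well above background on each RFF11 array or its own signal there, whichever was higher. Chil3, a chitinase-like protein of the same macrophages, read 6.40 and 5.41 in RFF11 cells, against 5.42 and 5.54 in RFF cells, so its RFF11 arrays differed by 0.99 in the same order as those of Cd209a while its groups overlapped. Over the 5 lists, 58 different genes were tested, 5 rose and 1 fell, a split that was 8 higher and 8 lower with normexp, 7 and 7 with raw median signal, and 10 higher and 11 lower with the trended prior. Without any single array, with the replicate number as a block or without the filter on dim probes, 0 of the listed genes passed.

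**Figure D5:**
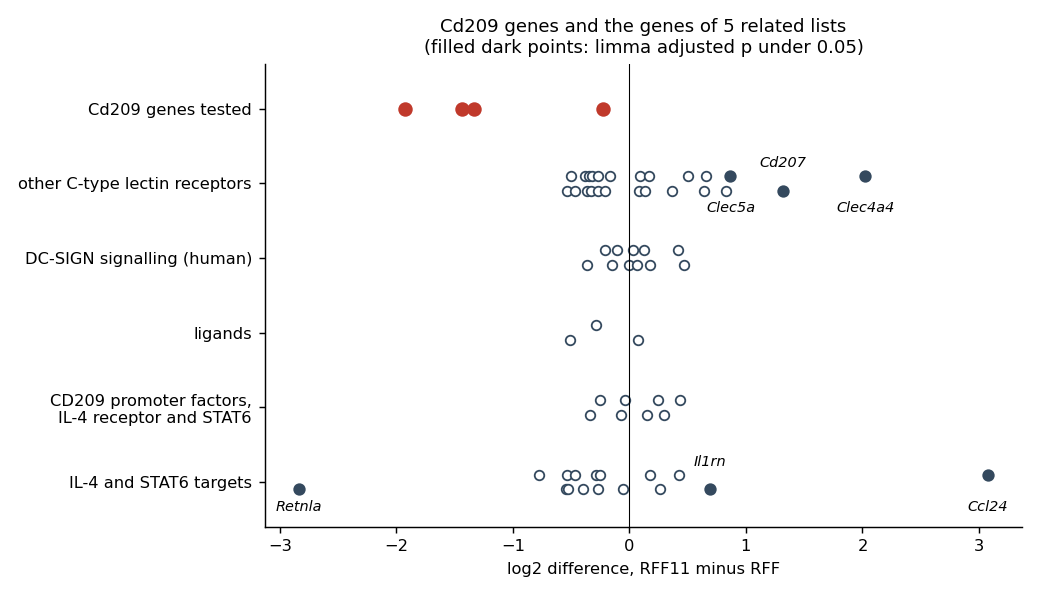
Log2 difference RFF11 minus RFF of the 4 tested Cd209 genes (red) and of the tested genes of 5 related lists (1 point per gene, staggered to keep them apart), with filled dark points for genes that passed the limma adjusted p of 0.05. The Cd209 genes span -1.93 to -0.22, and the listed genes that passed are Clec4a4, Cd207, Clec5a, Ccl24 and Il1rn above 0 and Retnla below 0.

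Markers of the cells that such cultures can hold were summed as linear levels, in multiples of the array's 75th percentile, over the tested genes of each list, and the counts of markers that passed stand against 1.04% of all genes higher and 0.84% lower. Monocyte-derived dendritic cell markers, the list closest to cells known to express Cd209a, summed to 580 and 563 on the RFF11 arrays, against 647 and 660 on the RFF arrays. Of these 11 markers 0 rose and 1 fell, Fcgr1 at -0.61 (limma adjusted p = 0.0424), 9 lay below 0, 8 of them without overlap between genotypes (32.2% of all genes), and the median was -0.27. Of 15 markers of cDC2, the conventional dendritic cells that RBPJ supports in spleen, 2 rose (Clec4a4 and Cd7) and 0 fell. Their sums were 553 and 537 in RFF11, against 612 and 611 in RFF cells. Both RFF11 arrays lay below both RFF arrays for 8 of the 15 and above them for 6, against 32.2% and 26.8% of all genes. Itgam, Mgl2, Sirpa and Csf1r were in this list and in the monocyte-derived one, so the sums of these lists are not independent. Sums of linear levels also rest mostly on the brightest genes. Mgl2, the brightest tested gene of both lists, differed by -0.27 and did not pass (limma adjusted p = 0.106). The lower sums therefore say little about the dimmer markers of either list. Of 20 monocyte and macrophage markers 1 rose (Marco) and 3 fell (Fcgr1, Fn1 and Trem2), with sums of 455 and 453 in RFF11, against 487 and 525 in RFF cells. Cd163, Timd4 and Vsig4 of this list were not above background on any array. Other macrophage markers of the list, among them C1qa, C1qb, C1qc, Apoe and Mertk, were well above background on all 4 arrays.

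Shared dendritic cell markers summed to 1118 and 1040 in RFF11, against 1151 and 1123 in RFF cells, and 0 of 13 passed. Of 15 neutrophil and granule markers 4 rose (Stfa2l1, Stfa2, Mpo and Ngp) and 0 fell, and both RFF11 arrays lay above both RFF arrays for 13 of the 15, against 26.8% of all genes. Their median was 0.62, with sums of 95.0 and 88.8 in RFF11, against 68.2 and 67.6 in RFF cells. Mmp9 and Retnlg of this list were not above background on any array. Of the markers of marginal zone macrophages, the cells that carry Cd209b in spleen, 1 of 6 rose (Marco) and 2 lay below 0. Their sums were 9.22 and 8.34 in RFF11, against 6.97 and 6.40 in RFF cells. Marco was the brightest of the 6 in RFF11 cells, at 2.19 and 2.03, against 0.86 and 0.77 in RFF cells. The higher RFF11 sums therefore rest on Marco and not on the list as a whole. Of 9 plasmacytoid dendritic cell markers 1 rose (Cd7) and 2 fell (Klra17 and Blnk), and of 8 mast cell, basophil and eosinophil markers 1 rose (Hdc) and 2 fell (Siglecf and Il1rl1). Of 7 lymphocyte and natural killer cell markers 1 rose (Klrb1c), and of 7 cDC1 and 5 endothelial markers 0 passed. The part of these cell types in the Cd209 differences was not tested. Across the 11 marker lists the median gap of RFF11 replicate 1 over replicate 2 lay between -0.20 and 0.12. The lower Cd209 genes had gaps of 0.69 to 1.15, but a median over a list is not comparable with the gap of a single gene. Single markers had wider gaps than the list medians in either direction, such as -0.87 for Stab1 and 0.54 for Clec4g. All 4 arrays lay on 1 slide, so an effect of slide position and one of genotype cannot be told apart.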

How the data were processed

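Total RNA of CD11c+ marrow-derived cells was labelled with Cy3 from 150 ng per sample and hybridised to 4 one-colour Agilent mouse arrays, 2 per genotype, per the labels' protocols. The scanner software was Agilent Feature Extraction 10.7.1.1, per the submitters' processing notes, and it subtracted background from the spot intensity and removed spatial trends within each array, per the file headers. The deposited intensity was not scaled between arrays. The deposited table holds log2 values of the same arrays by the authors, whose scaling is not given in the sources used here. Compared with the scanner intensities, they were log2 values scaled per array and centred per probe on the 4 arrays, with the direction unchanged (Pearson r of 0.99995 to 0.99997 over 39426 to 39429 probes). Their column medians were -0.0339 and 0.0202 for RFF11 and 0.0528 and -0.0305 for RFF. The flags for spots well above background, outlying or saturated are those of the scanner software per the file headers.

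From these intensities, outlying spots were left out (132 and 127 on the RFF11 and 176 and 138 on the RFF arrays), 0 spots were saturated, log2 signal was reduced by the 75th percentile of each array and spots of a probe were averaged. Genes were tested by their probe with the highest mean, if it was well above background on both arrays of RFF11, of RFF or of both, in R 4.3.3 with lmFit and eBayes of limma 3.58.1 and Benjamini-Hochberg adjustment over 17973 genes at 0.05. The procedure was tested on simulated data. Tables and drawings used Python 3.11.15, numpy 2.4.6 and pandas 2.3.3. The number of arrays limits the precision, and columns of other samples numbered 0.

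Probes were named through accessions in RefSeq of GRCm38.p6, used for names, gene order and promoters, as the array annotation is on mm9 per the file headers. Among 39429 probes, 26055 received 1 symbol, 0 several and 13374 none. A promoter was found for 7 of the 7 members.

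The members and lists were chosen with earlier results of these data known. The genes named were, by rule, the 7 members, Rbpj, Itgax, in each list at most 3 highest and 3 lowest members past the threshold or else the one farthest from 0, the 5 genes most like the brightest member, and 5 annotated genes on either side of the cluster. Mrc1, Clec10a, Mgl2, Lsp1, Spi1, Stat6, Il4ra, Chil3 and all single markers of cell types were named after their values were seen, and Stxbp2, Mcemp1 and Snapc2 were added to the drawing of neighbours. Planned protein comparisons were not made, since protein sequences were not used here. Replicate numbers did not pair the samples: same-numbered deviations from the group means correlated at -0.0472 across genes. The alternatives were other scalings, background corrections, filters, probe rules and variance priors, the deposited table, the replicate number as a block and each array left out. As mean signal was not used here, normexp (offset 50) took the median signal and its local background.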

Additional observations from a re-analysis of the deposited data

How the results depend on the processing

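Alternatives numbered 9 for each probe: quantile and median scaling, normexp background correction, the deposited table, raw median signal and each array left out. Cd209d stayed below 0 in 9 of 9 (-2.50 to -1.35) and Cd209e in 9 of 9 (-1.78 to -1.09). The brighter and dimmer Cd209a probes stayed below 0 in 9 of 9 (-1.89 to -0.78 and -2.02 to -0.85). The extremes come from leaving out RFF11 replicate 1 and RFF11 replicate 2. Both RFF11 arrays lay below both RFF arrays for each of these probes, so leaving out 1 array could not change the sign. The scalings and the deposited table rest on the same scanner intensities, and the members were selected for lying lower. The counts are therefore no independent support. The brighter Cd209c probe lay between -0.53 and 0.08, the dimmer between -0.0014 and 0.15, and Cd209f between -0.84 and 0.39.

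The median over the 8 member probes, -1.05, was -0.74 with normexp and -0.75 with raw median signal, an alternative chosen after seeing the data. It was -1.38 over the probes well above background on all 4 arrays or on both arrays of at least 1 genotype, and -1.27 to -0.79 without 1 array.

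Genes past the limma threshold numbered 338, against 1050 with normexp, 916 with raw median signal and 1547 with a trended, robust variance prior. They numbered 0 without the filter on dim probes (3654 at an unadjusted p under 0.05), 0 with the replicate number as a block (3677) and 0 to 1 without 1 array. The 6 calls among listed genes (5 higher, 1 lower) became 16 with normexp (8 and 8), 14 with raw median signal (7 and 7), 21 with the trended prior (10 and 11), 0 without the filter, 0 with the block and 0 to 0 without 1 array. The cause of these shifts was not tested. Signal over background limits Cd209f and Cd209b. The Cd209b spots were not well above background on any array, so no change is read from them. Their log2 difference of -0.78 moved to -0.09 with normexp and -0.18 with raw median signal, so its size depended on the processing. Cd209g was not measured. Each comparison rests on 2 arrays per genotype from pooled RNA.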
